A study of Mus musculus with 6 samples.

Results

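The ATF4 amino acid response genes described here are 32 mouse genes chosen by symbol from the 24421 gene rows of the count table, of which 31 passed the filter on low counts and were among the 13548 genes tested. They were sorted by role into 8 stress and regulatory genes, 3 amino acid transporters, 5 enzymes of serine, glycine and one-carbon metabolism, 5 other amino acid enzymes, 9 aminoacyl-tRNA synthetases and 2 other targets. RNA sequencing was carried out on LK cells, bone marrow cells sorted for absence of lineage markers and presence of the c-Kit receptor, a gate that holds haematopoietic stem cells and myeloid, erythroid and megakaryocyte progenitors. Of the 6 libraries, 3 came from ASXL1-MT-KI mice, knock-in animals for a mutant form of ASXL1 (a chromatin regulator mutated in myeloid malignancies), and 3 came from wild type littermates. All mice were C57BL/6 and 8 to 12 weeks old. The locus, the promoter and any Cre that drive the mutant, and whether each library came from 1 animal, are not stated in the labels.

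ATF4 is a bZIP transcription factor whose translation rises when the initiation factor eIF2alpha is phosphorylated by kinases that sense amino acid shortage, unfolded protein, haem deficiency or viral RNA. With C/EBP family partners it binds a composite site and activates genes that make, import and charge amino acids, and in longer or stronger stress it activates Ddit3, Trib3 and Chac1. Haematopoietic stem cells, a small share of an LK gate, are known for a low rate of protein synthesis, while the more restricted progenitors that make up most of it make protein faster. Messenger RNA was counted here, so ATF4 protein and its translation were not measured.

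The composite site was looked for as TGATGNAA, on both strands, in RefSeq promoters of the build GRCm38.p6 from 250 bases before to 50 bases after each start. A promoter was found for 27 of the 32 genes, and 11 of these 27 genes (40.7%) held the motif, against 1219 of all 27025 mouse genes with a promoter (4.51%). The genes were listed as reported ATF4 targets, so this share describes the list and is no independent finding. Windows of 6 genes are shown: Herpud1 and Trib3, which fell in ASXL1-MT-KI cells, Pycr1, which rose, and Asns, Slc7a11 and Gars, which did not pass the main test. Asns was called higher in a fit that also held the replicate number. Capitals mark the motif, which reads as its reverse complement where it lies on the other strand, and each line is the gene's own strand, 5′ to 3′.
Herpud1, chr8:94386291-94386350, plus strand: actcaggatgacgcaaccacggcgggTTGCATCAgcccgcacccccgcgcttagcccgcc
Trib3, chr2:152344028-152344057, minus strand: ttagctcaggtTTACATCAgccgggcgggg
Pycr1, chr11:120643818-120643877, minus strand: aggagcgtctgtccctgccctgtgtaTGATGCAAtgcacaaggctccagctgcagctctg
Asns, chr6:7693210-7693269, minus strand: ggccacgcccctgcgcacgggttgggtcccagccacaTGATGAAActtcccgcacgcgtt
Slc7a11, chr3:50443646-50443705, minus strand: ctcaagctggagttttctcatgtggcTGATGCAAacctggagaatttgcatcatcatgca
Gars, chr6:55037941-55038000, plus strand: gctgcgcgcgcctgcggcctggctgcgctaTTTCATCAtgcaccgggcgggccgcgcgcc
The motif began 112 bases before the RefSeq start in Herpud1, 103 in Pycr1, 66 in Slc7a11, 30 in Gars and 23 in Asns, and at base 15 past the start in Trib3. Slc7a11 held a second match, on the opposite strand, that began 47 bases before the start and is left in lower case in the window shown. The other 5 genes with the motif were Aars, Chac1, Nupr1, Tars and Vldlr. A match is a run of letters and not a measured binding site.

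Libraries held 40462168 to 47579480 gene counts, and libraries within a group varied by a biological coefficient of variation of 8.78%. Asxl1, the targeted gene, had 323.5, 326.6 and 310.2 CPM (counts per 1000000, scaled by TMM) in ASXL1-MT-KI and 176.0, 170.0 and 165.1 CPM in wild type. Kit lay between 373 and 396 CPM in ASXL1-MT-KI libraries and between 375 and 453 CPM in wild type libraries, and 6 lineage markers with a row summed to 66.7 to 75 CPM in ASXL1-MT-KI and 53.5 to 62.4 CPM in wild type. Ptprc and Cd34 were lower, at 148 to 170 and 296 to 309 CPM in ASXL1-MT-KI, against 181 to 226 and 361 to 401 CPM in wild type. Among lists of cell type markers, 8 neutrophil genes summed to 5050 to 5510 CPM in ASXL1-MT-KI and 4910 to 5470 CPM in wild type. Elane, Prtn3 and Ctsg made up most of that sum, each at 1180 CPM or more in every library. Ltf, Camp and Ngp, of the same list, were at 5.28 CPM or less. The 7 T and NK cell genes with a row summed to 145 to 193 CPM in ASXL1-MT-KI and 166 to 182 CPM in wild type. Nkg7 made up nearly all of it, at 144 to 190 CPM in ASXL1-MT-KI and 163 to 179 CPM in wild type. Cd3d was at 0.188 CPM or less and Cd3g had no reads. None of these neutrophil, T and NK cell genes passed the threshold. A list of 8 mast cell, basophil and eosinophil genes summed to 220 to 489 CPM in ASXL1-MT-KI and 510 to 593 CPM in wild type, with 0 of 8 past the threshold. The 7 red cell genes with a row summed to 456 to 649 CPM in ASXL1-MT-KI and 256 to 467 CPM in wild type, with 1 higher, and of 7 tested megakaryocyte genes, 2 were lower, with sums of 234 to 312 CPM in ASXL1-MT-KI and 297 to 342 CPM in wild type. The 6 tested B cell genes included 3 that were lower, in a list that summed to no more than 25.3 CPM in any library. The part of these shifts in the results below was not tested, and in bulk RNA fewer cells of a type and less RNA per cell cannot be told apart.

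In ASXL1-MT-KI cells, 5 of 8 stress and regulatory genes, 1 of 3 transporters and 1 of 5 serine, glycine and one-carbon enzymes fell, 2 of 5 other amino acid enzymes rose, and 0 of 9 synthetases passed the threshold. Of the 31 tested genes, 7 were lower at an adjusted p under 0.05 (22.6%), against 7.69% of all tested genes. Another 2 were higher (6.45%), against 8.29% of all tested genes. These are calls of edgeR's quasi-likelihood test for genotype alone, with Benjamini-Hochberg adjustment over 13548 genes. The list was chosen with earlier results of these data known, so these shares are no independent finding. The lower genes were Atf4, Ddit3, Ddit4, Trib3, Herpud1, Slc3a2 and Phgdh, and the higher genes were Gpt2 and Pycr1. The log2 fold change of ASXL1-MT-KI over wild type was below 0 for 25 of 31 genes, with a median of -0.074, beside a median of 0.00 over all tested genes. The 3 libraries of each group did not overlap for 11 genes, 9 of them lower and 2 higher in ASXL1-MT-KI, beside 17.2% of all tested genes without overlap and lower and 18% without overlap and higher. With a block for the replicate number, 10 genes were lower, against 13.8% of all tested genes, and 3 were higher, against 16.7%.

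**Figure D1:**
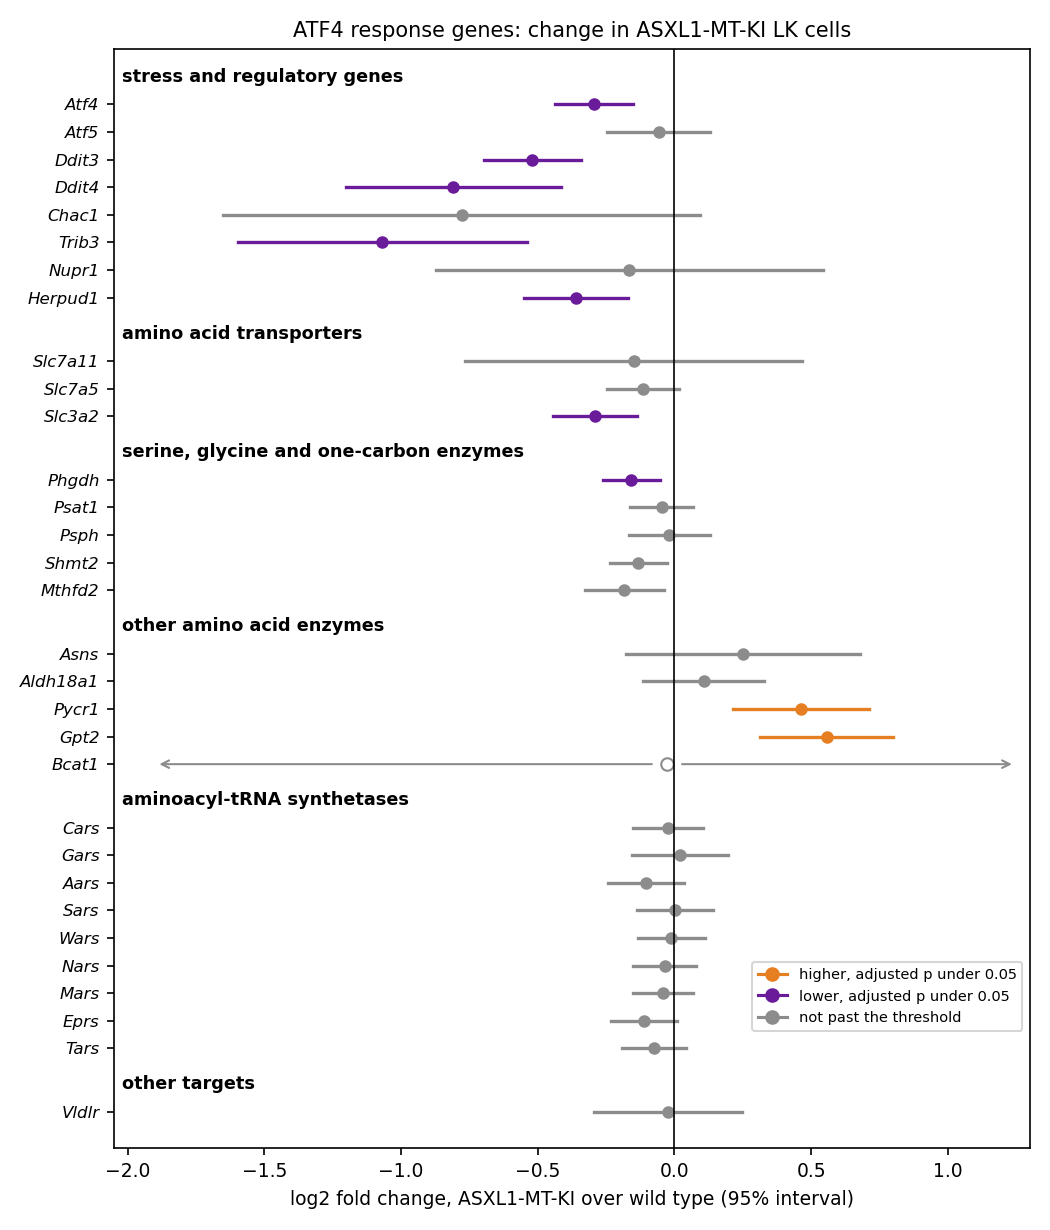
Log2 fold change of ASXL1-MT-KI over wild type for the 31 tested genes, grouped by role, with 95% intervals from edgeR (3 libraries a group). All 8 stress and regulatory genes lie left of 0, from -1.07 for Trib3 to -0.058 for Atf5, while the 9 synthetases lie close to 0; the interval of Bcat1 runs past both ends of the axis and is drawn as arrows.

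Among the 8 stress and regulatory genes, 5 fell, 0 rose and 3 did not pass the test, and all 8 had a log2 fold change below 0, with a median of -0.44. Atf4, the factor itself (chr15:80255184-80257541, plus strand, in GENCODE M21 on GRCm38), had 347, 327 and 325 CPM in ASXL1-MT-KI replicates 1 to 3, against 440.2, 413 and 373 CPM in wild type replicates 1 to 3. Every ASXL1-MT-KI library was below every wild type library, and its mean level was 18.5% lower. The log2 fold change of Atf4 was -0.30 ± 0.064 (SE), with an adjusted p of 0.0134 and of 6.54e-05 with the block. Dropping ASXL1-MT-KI replicate 2 or wild type replicate 1 ended the call, at an adjusted p of up to 0.0594.

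Ddit3 encodes CHOP, a C/EBP family factor that ATF4 induces and that promotes death in prolonged stress. It lies at chr10:127290774-127296288, plus strand, for the record used of 2 with that symbol, and had 35.4, 34.0 and 33.5 CPM in ASXL1-MT-KI replicates 1 to 3, against 54.7, 48.4 and 44.3 CPM in wild type replicates 1 to 3. The ASXL1-MT-KI libraries were within 2 CPM of each other and all below the lowest wild type library. Ddit3 averaged 34.3 ± 1.001 CPM in ASXL1-MT-KI cells and 49.2 ± 5.23 CPM in wild type cells (SD, n = 3 each), a log2 fold change of -0.52 ± 0.079 (SE) with an adjusted p of 0.00256, and it kept its call in 14 of 14 alternatives. Its last exon overlaps that of Mars, on the opposite strand, by 68 bases, which are 4.0% of the exon length of Ddit3 and 2.0% of that of Mars, and Mars had a log2 fold change of -0.041.

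Ddit4, an inhibitor of the growth kinase mTORC1 that also responds to low oxygen and glucocorticoids, lies at chr10:59949669-59951834, minus strand. It had 35.8, 33.4 and 28.8 CPM in ASXL1-MT-KI replicates 1 to 3, against 67.0, 60.9 and 43.5 CPM in wild type replicates 1 to 3. The groups did not overlap, and replicate 3 was the lowest library of each group. Ddit4 averaged 42.9% less in ASXL1-MT-KI than in wild type, with a log2 fold change of -0.81 ± 0.17 (SE). Its adjusted p was 0.0196, and 4.55e-07 with the block. The call was lost with no filter on low counts and without any 1 of ASXL1-MT-KI replicates 1, 2 and 3 or wild type replicate 2, at an adjusted p of up to 0.0808 without a library.

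Trib3, a pseudokinase that binds ATF4 and dampens its activity, had the fold change farthest from 0 of the 31 genes and was scarce. It lies at chr2:152337422-152344032, minus strand, and had 30, 27 and 23 reads in ASXL1-MT-KI and 68, 58 and 40 reads in wild type, which were 0.625, 0.597 and 0.554 CPM in ASXL1-MT-KI replicates 1 to 3, against 1.48, 1.26 and 0.986 CPM in wild type replicates 1 to 3. Each ASXL1-MT-KI library held fewer reads than each wild type library, and the log2 fold change was -1.07 ± 0.24 (SE), with an adjusted p of 0.0147. Without ASXL1-MT-KI replicate 2 or wild type replicate 1 the call was lost, at an adjusted p of up to 0.0707. The gene was not tested under the filter at 1 CPM in 3 libraries. Chac1, which degrades glutathione, was scarcer still, with 10, 15 and 9 reads in ASXL1-MT-KI and 23, 25 and 10 reads in wild type. These were 0.208, 0.332 and 0.217 CPM in ASXL1-MT-KI replicates 1 to 3, against 0.501, 0.545 and 0.246 CPM in wild type replicates 1 to 3. Only wild type replicates 1 and 2 stood above the rest, wild type replicate 3 fell among the ASXL1-MT-KI libraries, and the log2 fold change of -0.78 ± 0.39 (SE) had an adjusted p of 0.211 and an interval of -1.65 to 0.094.

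Herpud1, a membrane protein of endoplasmic reticulum associated degradation that is induced by unfolded protein, lies at chr8:94386438-94395377, plus strand. It had 145, 139.8 and 159.9 CPM in ASXL1-MT-KI replicates 1 to 3, against 186, 213 and 171 CPM in wild type replicates 1 to 3. The groups did not overlap, and the gap between same-numbered libraries was smallest at number 3. Its log2 fold change was -0.36 ± 0.084 (SE) with an adjusted p of 0.0206, but with the block the adjusted p was 0.122, and dropping ASXL1-MT-KI replicate 1 or 2 or wild type replicate 1 also ended the call. The remaining stress genes did not pass. Atf5, a related bZIP factor, averaged 11.1 ± 0.648 CPM in ASXL1-MT-KI cells and 11.5 ± 0.292 CPM in wild type cells, a log2 fold change of -0.058 with an interval of -0.25 to 0.13. Nupr1, a small stress-induced chromatin protein, averaged 0.559 ± 0.0930 CPM in ASXL1-MT-KI cells and 0.625 ± 0.224 CPM in wild type cells, a log2 fold change of -0.16 with an interval of -0.87 to 0.54.

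**Figure D2:**
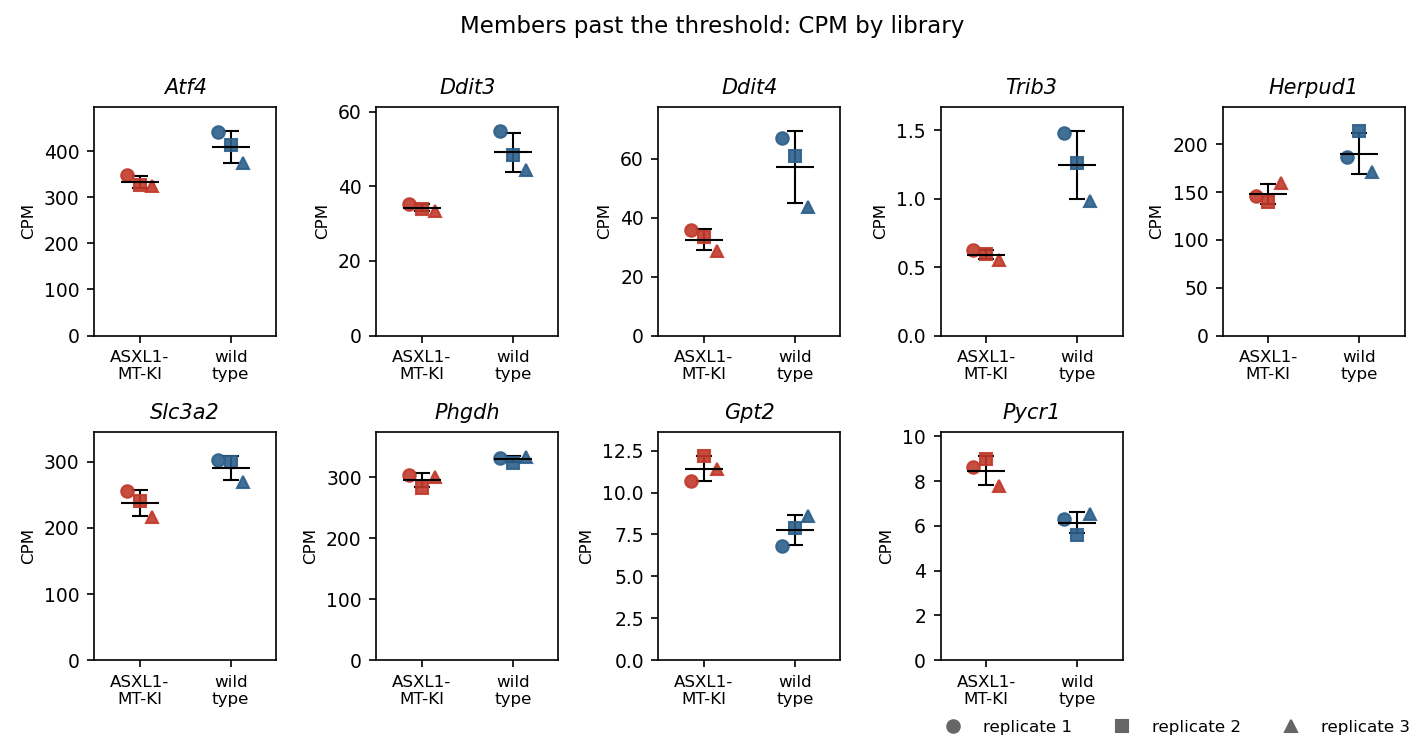
Level (TMM-scaled CPM) of the 9 genes with an adjusted p under 0.05, by library; symbols mark the replicate number, the long bar is the mean and the whiskers are the SD of 3 libraries. In the 7 lower genes every ASXL1-MT-KI library is below every wild type library, and in Gpt2 and Pycr1 every one is above.

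Of the 3 transporters, 1 fell and 2 did not pass. Slc3a2, the heavy chain that carries Slc7a5 and Slc7a11 to the cell surface, lies at chr19:8706882-8723369, minus strand. It had 255, 240.3 and 217 CPM in ASXL1-MT-KI replicates 1 to 3, against 302, 299 and 269.8 CPM in wild type replicates 1 to 3. All ASXL1-MT-KI libraries were below all wild type libraries, and replicate 3 was the lowest of each group. Slc3a2 averaged 18.2% less in ASXL1-MT-KI than in wild type, with a log2 fold change of -0.29 ± 0.069 (SE) and an adjusted p of 0.0199. The block gave 3.89e-05, and dropping ASXL1-MT-KI replicate 2 or 3 or wild type replicate 1 or 2 ended the call, at up to 0.0899.

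Slc7a5, the light chain that imports leucine and other large neutral amino acids, averaged 230.2 ± 13.95 CPM in ASXL1-MT-KI cells and 249 ± 11.5 CPM in wild type cells. The groups overlapped, with a log2 fold change of -0.11 ± 0.058 (SE) and an adjusted p of 0.217, and 0.0314 with the block. Slc7a11, the light chain that exchanges cystine for glutamate, had 1.21, 1.75 and 1.40 CPM in ASXL1-MT-KI replicates 1 to 3, against 2.29, 1.20 and 1.33 CPM in wild type replicates 1 to 3. Wild type replicate 1 was the highest and the other 5 libraries were mixed, and the log2 fold change of -0.15 ± 0.27 (SE) came with an interval of -0.77 to 0.47 and an adjusted p of 0.767.

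The enzymes of serine, glycine and one-carbon metabolism included 1 of 5 that was lower and 0 that were higher, and their log2 fold changes had a median of -0.13. Phgdh, which draws the first intermediate of serine synthesis from glycolysis, had 303, 282 and 301 CPM in ASXL1-MT-KI replicates 1 to 3, against 333, 324 and 333 CPM in wild type replicates 1 to 3 (chr3:98313170-98339990, minus strand). All ASXL1-MT-KI libraries were below all wild type libraries, by 10.4% on average. Its log2 fold change was -0.16 ± 0.047 (SE), and its adjusted p of 0.0472 stood at the edge of the threshold. The call was kept in 4 of 14 alternatives and in 0 of the 6 that leave out a library, where the adjusted p reached 0.197, while the block gave 0.00521. A processed pseudogene of Phgdh is annotated, and how shared reads were counted is not stated in the labels.

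The next steps of serine synthesis did not pass. Psat1, the aminotransferase, had 179, 174 and 187 CPM in ASXL1-MT-KI replicates 1 to 3, against 195, 179 and 184 CPM in wild type replicates 1 to 3. The groups overlapped and the log2 fold change was -0.046 ± 0.052 (SE), with an interval of -0.16 to 0.070 and an adjusted p of 0.596. Psph, the phosphatase that releases serine, averaged 23.3 ± 1.08 CPM in ASXL1-MT-KI cells and 23.6 ± 0.401 CPM in wild type cells, with an interval of -0.17 to 0.13 on the log2 scale. Its exons overlap those of Cct6a on the opposite strand over 10.4% of their length. The 2 mitochondrial enzymes that carry serine carbon onto folate were lower in each ASXL1-MT-KI library than in any wild type library without passing the main test. The same held for 17.2% of all tested genes as to the lack of overlap, whether or not they passed. Shmt2, which splits serine into glycine and a one-carbon unit, had 233, 230.4 and 224 CPM in ASXL1-MT-KI replicates 1 to 3, against 257, 256 and 239.8 CPM in wild type replicates 1 to 3. Its log2 fold change was -0.13 ± 0.047 (SE), with an adjusted p of 0.0903 and of 0.0164 with the block. Mthfd2, the folate dehydrogenase, had 39.5, 39.9 and 41.9 CPM in ASXL1-MT-KI replicates 1 to 3, against 46.2, 48.7 and 42.8 CPM in wild type replicates 1 to 3. It gave -0.18 ± 0.064 (SE) on the log2 scale, with an adjusted p of 0.0859 and of 0.0297 with the block.

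Of the other amino acid enzymes, 2 of 5 were higher and 0 lower, with a median log2 fold change of 0.25. Gpt2, the mitochondrial alanine aminotransferase (chr8:85492576-85527560, plus strand), had 10.7, 12.2 and 11.4 CPM in ASXL1-MT-KI replicates 1 to 3, against 6.84, 7.87 and 8.60 CPM in wild type replicates 1 to 3. Every ASXL1-MT-KI library was above every wild type library, and the mean was 47.1% higher. Its log2 fold change was 0.56 ± 0.11 (SE) with an adjusted p of 0.00864, a call kept in 14 of 14 alternatives. Pycr1, the mitochondrial reductase of the last step of proline synthesis (chr11:120635712-120643769, minus strand), had 8.65, 9.003 and 7.76 CPM in ASXL1-MT-KI replicates 1 to 3, against 6.32, 5.60 and 6.53 CPM in wild type replicates 1 to 3. The groups did not overlap, with a log2 fold change of 0.46 ± 0.11 (SE) and an adjusted p of 0.0208, which was lost without replicate 1 or 2 of either group, at up to 0.0886.

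Asns, asparagine synthetase and the classic amino acid response gene, had 94.2, 93.5 and 71.5 CPM in ASXL1-MT-KI replicates 1 to 3, against 78.6, 82.7 and 56.4 CPM in wild type replicates 1 to 3. The groups overlapped, replicate 3 was low in each, and within each number the ASXL1-MT-KI library was the higher. Its log2 fold change of 0.25 ± 0.18 (SE) had an interval of -0.18 to 0.68 and an adjusted p of 0.396 in the main test, and with the block it was 0.26 with an adjusted p of 0.00057. Aldh18a1, the enzyme that makes the proline precursor from glutamate, showed the same layout by number, with 160.3, 155 and 131 CPM in ASXL1-MT-KI replicates 1 to 3, against 142, 150 and 122 CPM in wild type replicates 1 to 3. Its log2 fold change was 0.11 ± 0.10 (SE), with an adjusted p of 0.502 and of 0.0643 with the block. Bcat1, the cytosolic aminotransferase of branched-chain amino acids, varied widely within each group. It had 68, 63 and 568 reads in ASXL1-MT-KI and 56, 357 and 312 reads in wild type, or 1.42, 1.39 and 13.7 CPM in ASXL1-MT-KI replicates 1 to 3, against 1.22, 7.79 and 7.69 CPM in wild type replicates 1 to 3. ASXL1-MT-KI replicates 1 and 2 and wild type replicate 1 were low and the other 3 libraries were high, whatever the genotype, and the adjusted p was 0.992.

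**Figure D3:**
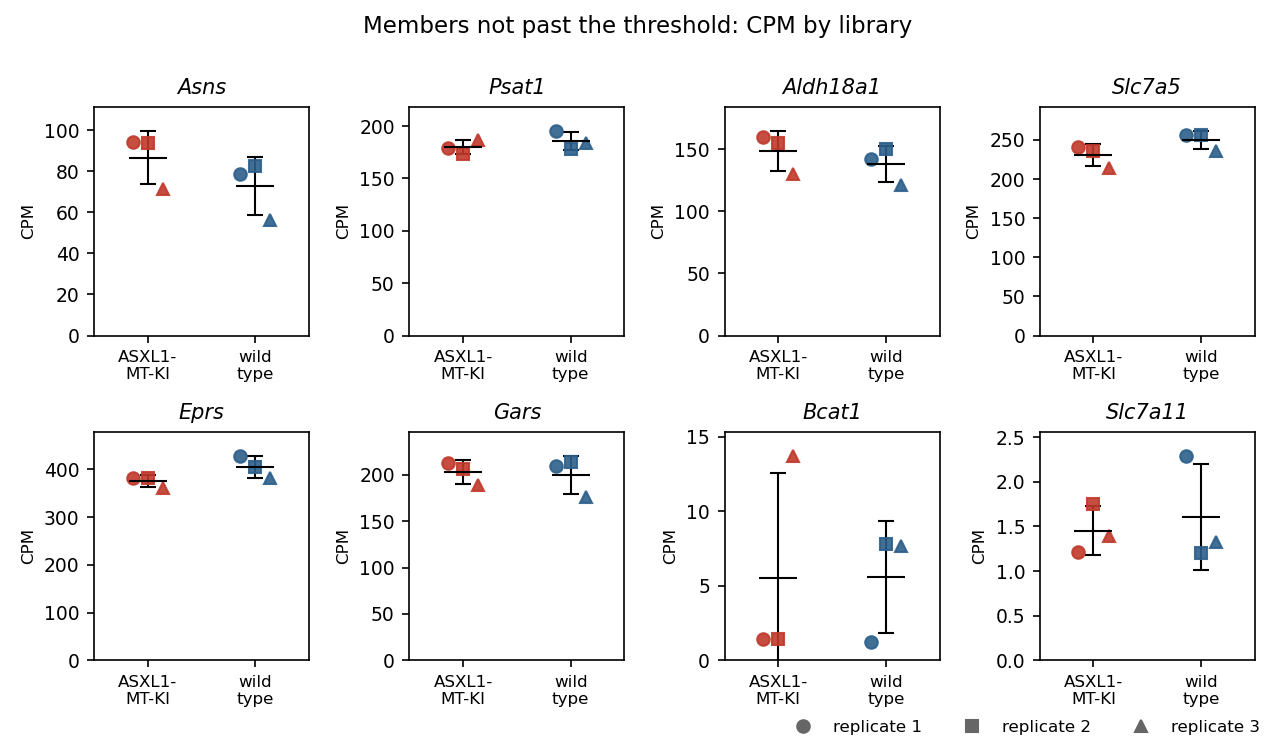
Level (TMM-scaled CPM) by library of 8 genes that did not pass the threshold in the main test, which held genotype only. Symbols mark the replicate number, the long bar is the mean and the whiskers are the SD of 3 libraries. Asns and Aldh18a1 are low in replicate 3 of both groups, and Bcat1 is low in ASXL1-MT-KI replicates 1 and 2 and in wild type replicate 1; its lower whisker is cut at 0.

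The aminoacyl-tRNA synthetases, which attach each amino acid to its tRNA, showed no member past the threshold. Of the 9 cytosolic enzymes (Aars, Cars, Eprs, Gars, Mars, Nars, Sars, Tars and Wars), 0 were higher and 0 lower by edgeR, DESeq2 and limma-voom alike, and 0 had an unadjusted p under 0.05 in any of the 3. By edgeR, 4121 of all 13548 tested genes had an unadjusted p under 0.05. The median log2 fold change was -0.035. The 95% intervals of all 9 together ran from -0.24 to 0.20 on the log2 scale. The lowest adjusted p of the 9 was 0.198, of Eprs, the joint enzyme for glutamate and proline, which averaged 375 ± 12.6 CPM in ASXL1-MT-KI cells and 405 ± 22.6 CPM in wild type cells, with a log2 fold change of -0.11 ± 0.054 (SE). With the block, Eprs had an adjusted p of 0.0404 and was the 1 synthetase called. Aars, the alanine enzyme, which shares 14.3% of its exon length with Exosc6, had a log2 fold change of -0.10 ± 0.062 (SE), and Gars, the glycine enzyme, of 0.021 ± 0.078 (SE). Of the other targets, Vldlr, a lipoprotein receptor, averaged 6.63 ± 0.643 CPM in ASXL1-MT-KI cells and 6.74 ± 0.60 CPM in wild type cells, with a log2 fold change of -0.023 and an interval of -0.29 to 0.25. Stc2, a secreted glycoprotein, was the gene that did not pass the filter, with 7, 4 and 8 reads in ASXL1-MT-KI and 14, 7 and 29 reads in wild type.

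Set per kilobase of annotated exon, the wild type levels of the 32 genes ran from 0.0755 CPM per kb for Stc2 to 173.3 CPM per kb for Atf4. Atf4 was the most abundant of the 32 genes at 141 CPM per kb in ASXL1-MT-KI and 173 in wild type, and Phgdh came next at 119 CPM per kb in ASXL1-MT-KI and 133 in wild type. Among the genes that changed, Slc3a2 stood at 67.3 CPM per kb in ASXL1-MT-KI and 82.2 in wild type, Herpud1 at 63.6 CPM per kb in ASXL1-MT-KI and 81.5 in wild type, whereas Trib3 stood at 0.279 CPM per kb in ASXL1-MT-KI and 0.585 in wild type. Gpt2 and Pycr1, the 2 that rose, stood at 2.02 CPM per kb in ASXL1-MT-KI and 1.38 in wild type for Gpt2, and at 2.15 CPM per kb in ASXL1-MT-KI and 1.56 in wild type for Pycr1.

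**Figure D4:**
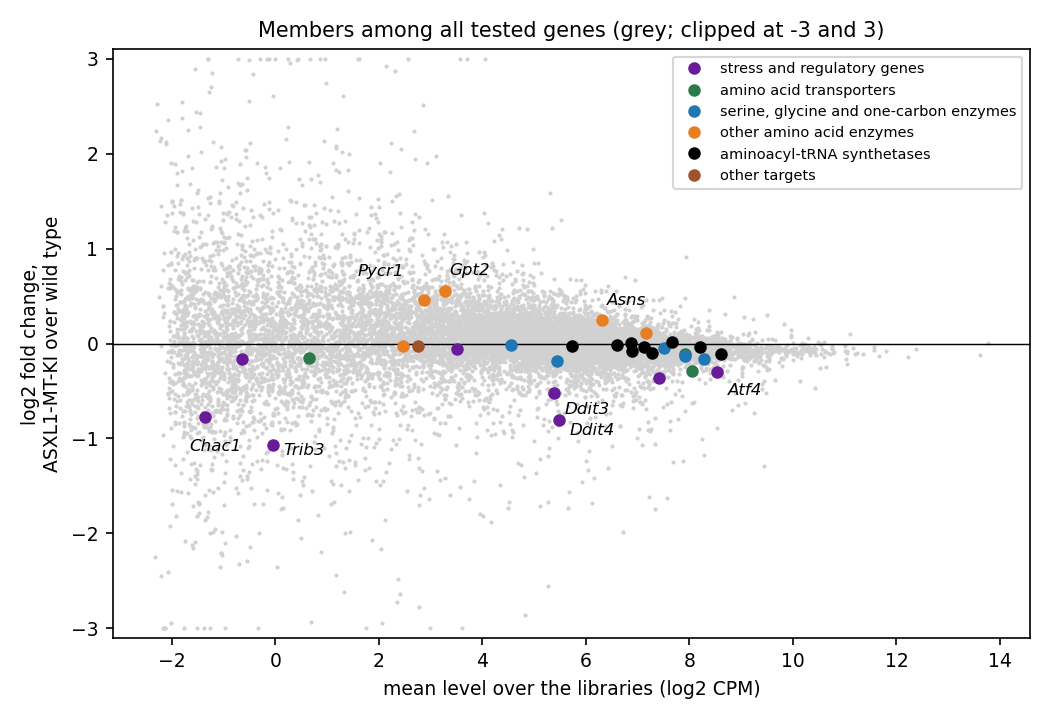
Log2 fold change of ASXL1-MT-KI over wild type against the mean level over the 6 libraries (log2 CPM) for all 13548 tested genes (grey) and the 31 tested genes of the ATF4 list (coloured by role). The spread of grey points widens at low levels, where Trib3 (-1.07) and Chac1 (-0.78) lie; Ddit3, Ddit4 and Atf4 lie below 0 at higher levels.

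Genes with the promoter motif were found in each direction of change. Of the 11 tested genes with the motif, 1 was higher (Pycr1) and 2 were lower (Trib3 and Herpud1), and of the 15 tested genes with a promoter and no motif, 1 was higher and 5 were lower. Over all genes tested, 9.31% of the 290 with the motif were higher and 7.24% lower, beside 8.16% higher and 7.91% lower of the 9895 genes with a promoter that lacked it. No difference between these shares was tested.

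The rest of the pathway was followed in 7 further lists, also chosen with earlier results of these data known. In them, 104 of 109 genes were tested. Of these 104, 9 were lower (8.65%), close to the 7.69% of all tested genes. Only 1 was higher (0.962%), against 8.29% of all tested genes, and the median log2 fold change was -0.010. With the block, 17 were lower and 8 higher. Among 9 bZIP partners of ATF4, 2 fell and 0 rose in the main test, and 4 were lower and 3 higher with the block, which called 13.8% of all tested genes lower and 16.7% higher. Cebpb, a C/EBP factor of granulocyte differentiation that pairs with ATF4, averaged 78.0 ± 2.14 CPM in ASXL1-MT-KI cells and 101 ± 8.23 CPM in wild type cells (SD, n = 3 each), a log2 fold change of -0.38 ± 0.064 (SE) with an adjusted p of 0.00442. Maff, a small Maf protein, averaged 31.5 ± 0.787 CPM in ASXL1-MT-KI cells and 57.0 ± 4.37 CPM in wild type cells, a log2 fold change of -0.86 ± 0.067 (SE) with an adjusted p of 9.2e-05. Atf3, a stress-induced partner picked after its values were seen, had 125, 132 and 56.8 CPM in ASXL1-MT-KI replicates 1 to 3, against 277, 262 and 114 CPM in wild type replicates 1 to 3. Replicate 3 was low in each group, the groups overlapped, and the log2 fold change of -1.06 ± 0.51 (SE) had an adjusted p of 0.248, and of 2.04e-10 with the block. The block also called Jdp2 lower, with a log2 fold change of -0.22 and an adjusted p of 0.0332 (0.116 in the main test). It called 3 partners higher, Cebpg at 0.18 with an adjusted p of 0.0122 (0.118 in the main test), Cebpd at 0.17 with 0.014 (0.197) and Nfe2l2 at 0.20 with 0.00277 (0.0837).

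Of 22 other reported ATF4 targets, 7 fell (31.8%, against 7.69% of all tested genes) and 1 rose (4.55%, against 8.29%). The median log2 fold change was -0.087. Earlier results of these data were known when the list was chosen, so its shares are no independent finding. With the block, 9 were lower and 2 higher, against 13.8% and 16.7% of all tested genes; the added calls were Gdf15 and Slc7a1, lower at adjusted p values of 0.0284 and 0.0249, and Slc1a4, higher at 0.0236. Vegfa, the angiogenic growth factor, averaged 102 ± 11.6 CPM in ASXL1-MT-KI cells and 193 ± 23.4 CPM in wild type cells, a log2 fold change of -0.91 ± 0.11 (SE) with an adjusted p of 0.00125. Ndrg1, a stress and differentiation gene, averaged 56.9 ± 1.74 CPM in ASXL1-MT-KI cells and 74.4 ± 4.08 CPM in wild type cells, and Slc38a2, a sodium-coupled carrier of small neutral amino acids, averaged 288 ± 12.0 CPM in ASXL1-MT-KI cells and 349 ± 9.87 CPM in wild type cells. Their adjusted p values were 0.0022 for Ndrg1 and 0.00524 for Slc38a2, and Klhl24 followed with a log2 fold change of -0.27 and an adjusted p of 0.0144. The other 3 that fell are named after their values were seen. They were Nfil3, a bZIP repressor, with a log2 fold change of -0.41, and the autophagy genes Map1lc3b, with -0.21, and Sqstm1, with -0.62, at adjusted p values of 0.0176, 0.0186 and 0.0194. Dropping wild type replicate 1 ended the calls of Klhl24, Nfil3, Map1lc3b and Sqstm1, dropping ASXL1-MT-KI replicate 1 those of Klhl24, Nfil3 and Map1lc3b, dropping ASXL1-MT-KI replicate 2 those of Map1lc3b and Sqstm1, and dropping wild type replicate 2 those of Nfil3 and Sqstm1, at adjusted p values of up to 0.0832. The 1 that rose was Cbs, which makes cystathionine from homocysteine and serine, at 0.960 ± 0.126 CPM in ASXL1-MT-KI cells and 0.310 ± 0.0236 CPM in wild type cells, a log2 fold change of 1.62 ± 0.26 (SE) with an adjusted p of 0.00301. Cbs was scarce, with 48, 37 and 44 reads in ASXL1-MT-KI and 13, 15 and 13 reads in wild type. It was not tested under the filter at 1 CPM in 3 libraries. The calls of Vegfa, Ndrg1, Slc38a2 and Cbs, and of Cebpb and Maff among the partners, held without any 1 library.

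The other 5 lists held no gene past the threshold by edgeR. These included 10 eIF2alpha kinases, phosphatase subunits and sensors, 14 genes listed as other cytosolic synthetases, 17 mitochondrial synthetases and 13 other one-carbon and glycine genes. The last list held 19 chaperones and folding genes of the ATF6 and IRE1 branches of the unfolded protein response. Of the 14, Aimp1, Aimp2 and Eef1e1 encode partner proteins of synthetases and not synthetases. By edgeR, an unadjusted p under 0.05 was found for 2 of the kinases, subunits and sensors and 0 of the cytosolic synthetase list. It was found for 2 of the mitochondrial synthetases, 1 of the one-carbon genes and 2 of the chaperone genes. Of all 13548 tested genes, 4121 had such a p, a larger share than in any of the 5 lists. DESeq2 called 1 kinase, subunit or sensor lower and 1 mitochondrial synthetase higher, limma-voom called 0 of the 5 lists' genes, and the block called Ppp1r15a (adjusted p 0.00431), Gcn1l1 (0.0269), Impact (0.00752) and the chaperone gene Calr (0.0431) lower and the mitochondrial synthetases Mars2 (0.0116) and Pars2 (0.023) and the one-carbon gene Mtr (0.0248) higher. The medians of their log2 fold changes lay between -0.056 for the chaperones and 0.062 for the mitochondrial synthetases. Hspa5, the main chaperone of the endoplasmic reticulum, which was picked after its values were seen, averaged 1948 ± 51.9 CPM in ASXL1-MT-KI cells and 2269 ± 366 CPM in wild type cells, a log2 fold change of -0.22 ± 0.11 (SE) with an adjusted p of 0.214.

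**Figure D5:**
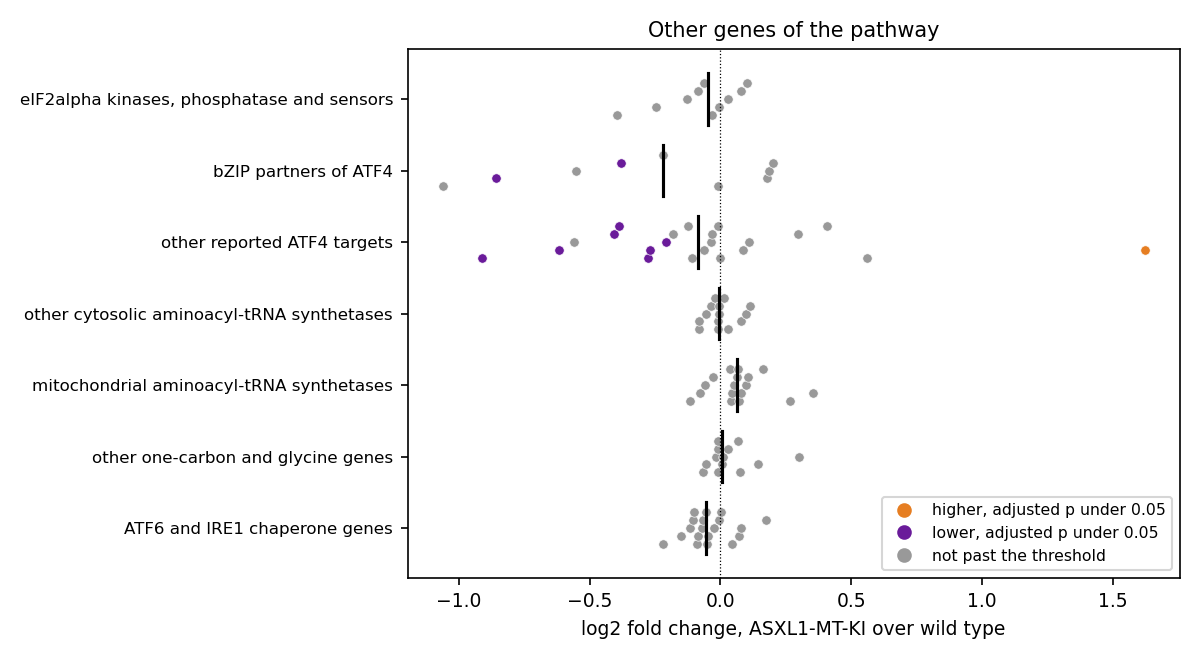
Log2 fold change of ASXL1-MT-KI over wild type for the 104 tested genes of the 7 further lists, 1 point a gene, with the median of each list as a bar. Points past the threshold in the main test, without the block, are in the bZIP partners (2 lower) and the other reported targets (7 lower, 1 higher). The other 5 lists hold none.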

How the data were processed

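Total RNA of LK cells was sequenced in 6 libraries, 3 per genotype, prepared from 200 ng RNA by NEBNext Ultra and read as 124 bp paired ends, per the labels' protocols. That kit keeps no strand. The authors deposited raw read counts, 1 row per gene symbol, without normalization. HISAT2 2.0.4 and mm10 are named in the submitters' processing notes; the counting tool, its annotation and its treatment of strand and shared reads were not given in the sources used here, so overlapping genes and close copies are uncertain.

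Genes were filtered with filterByExpr (minimum 10 counts), scaled by TMM and tested for genotype with the robust quasi-likelihood F test of edgeR 4.0.16 in R 4.3.3, with Benjamini-Hochberg adjustment over 13548 genes at 0.05. A standard error is the log2 fold change over the square root of F. The libraries are described as biologically independent experiments; where they were not separate animals, p-values measure only the spread between these samples. No pair of libraries within a group agreed within sampling noise. Deviations from the group mean were correlated across genes between libraries that share the replicate number of their titles. The correlations were 0.307, 0.217 and 0.472 for numbers 1, 2 and 3, all above 0.1. The main test held genotype only. A second fit added the number as a block, as if it marked pairs, and is given where it changes a call. Deviations within a group cancel, so a shift shared by the number 3 libraries alone would also raise the correlations among numbers 1 and 2. ASXL1-MT-KI 1 and wild type 2 also correlated, at 0.179, so the pairs at numbers 1 and 2 are not established.

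All 32 genes are named, with up to 5 genes past the threshold, by lowest p, of each further list; genes outside this rule are said to be so or are those whose call the block changed. Members and lists were chosen with earlier results of these data known. The alternatives tried were DESeq2 1.42.0 and limma-voom (limma 3.58.1) as tests, DESeq2 size factors or total counts as scaling, a filter at 1 CPM in 3 libraries or no filter, the replicate block, numbers 1 and 2 only, and leaving out each library. The pipeline was tried on simulated counts that held no effect shared by libraries of the same replicate number. The outcome is not given here. Coordinates and exon lengths came from GENCODE M21 (GRCm38, the assembly of mm10), and promoters are RefSeq's on GRCm38.p6. Figures were drawn with matplotlib 3.10.9.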

Additional observations from a re-analysis of the deposited data

How the results depend on the processing

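Ddit3 and Gpt2 were the only 2 of the 9 called genes to pass in all 14 alternatives. Leaving out 1 library gave 1128 to 2257 genes called among all tested (2165 with all libraries), 1 to 8 lower genes of the ATF4 list (7 with all) and 1 to 2 higher (2 with all), and 5 to 12 lower and 1 to 4 higher in the further lists (9 and 1 with all). The fewest lower genes of the ATF4 list were left without ASXL1-MT-KI replicate 2, where only Ddit3 passed, and without wild type replicate 1, where Ddit3 and Ddit4 passed; 4 passed without ASXL1-MT-KI replicate 1, ASXL1-MT-KI replicate 3 or wild type replicate 2. The further lists had 5 lower genes without wild type replicate 1 and 4 higher ones without wild type replicate 2. The replicate block gave 4132 genes called in all, 10 lower and 3 higher in the ATF4 list, and 17 lower and 8 higher in the further lists; the added calls are Asns, Eprs, Mthfd2, Shmt2 and Slc7a5, the lost one is Herpud1, and no other of the 31 calls changed. Numbers 1 and 2 only gave 8 lower and 3 higher in the ATF4 list and 14 lower and 2 higher in the further lists. Higher genes of the further lists numbered 4 with total counts and 2 with DESeq2. Total counts moved the all-gene median to 0.053 on the log2 scale and turned the sign of 8 genes that had not passed, to 0.0058 for Psat1, 0.033 for Psph, 0.026 for Bcat1, 0.029 for Cars, 0.040 for Wars, 0.017 for Nars, 0.011 for Mars and 0.028 for Vldlr. Sars turned to -0.0025 with DESeq2 size factors, -0.0025 with DESeq2 and -0.0027 with no filter, and Gars to -0.010 with numbers 1 and 2 only. Without 1 library the log2 fold change crossed 0 for Bcat1 (-1.98 to 0.43), Slc7a11 (-0.32 to 0.20), Nupr1 (-0.37 to 0.16), Vldlr (-0.10 to 0.045), Gars (-0.061 to 0.070), Sars (-0.043 to 0.043), Psph (-0.051 to 0.011), Wars (-0.053 to 0.02) and Cars (-0.066 to 0.0054), none of them called. The cause of these shifts was not tested. At 0.21 to 2.29 CPM, Chac1, Nupr1, Slc7a11 and Trib3 rest on few reads, and what part depth and the spread between libraries have in their intervals was not tested.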
